A study of Monodelphis domestica with 18 samples.

Results

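Opossum kidney (OK) cells are an established proximal tubule line, and the data describe which transcripts changed over 96 h in culture whether or not the cells were shaken. Cells were grown on permeable supports and kept either under orbital shear stress (OSS) on a platform shaker or under static conditions, and Static 0 h was taken the day after plating, when shaking began. The comparison used 9 of the 18 libraries, 3 each of OSS 96 h, Static 96 h and Static 0 h, and set the mean of the first 2 groups against Static 0 h. The series also holds 3 libraries each of OSS 12 h, OSS 48 h and Static 48 h. All groups were of the same line with no drug or genetic change, and each library was made from RNA pooled from 3 experiments. Nothing given here says whether the replicates were separate passages, so p-values measure the spread between these pooled samples. A gene was counted as moved in both cultures where OSS 96 h against Static 0 h and Static 96 h against Static 0 h each had an adjusted p under 0.05 in edgeR's quasi-likelihood test and the same sign. Both comparisons share the 3 Static 0 h libraries. Time after plating, cell density and every change of medium differ together between 96 h and 0 h and cannot be told apart.

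The proximal tubule reabsorbs most of the filtered salt, glucose, amino acids, phosphate and protein. Its cells carry a brush border with transporters and peptidases, a dense apical endocytic and lysosomal system, and many mitochondria that burn fatty acids more than glucose. Cultured tubule lines divide after plating, build a matrix under themselves and slow their cycle as the layer becomes dense, and many take up more of the differentiated program as they do so.

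Total counts in the 9 libraries were 40154553 to 79745362. Of 23899 genes with counts, 12840 were tested, namely those above 1 CPM (counts scaled to library size) in at least 6 of the 18 libraries. Levels are CPM scaled by edgeR's TMM factors, and each fold change is on the log2 scale, with its standard error (SE) from that test. Of the 14 proximal tubule markers 11 were tested, and their summed level was 14494 to 16552 CPM in OSS 96 h and 9134 to 9780 CPM in Static 96 h, against 7250 to 8094 CPM in Static 0 h. The summed markers of other cells, mostly fibroblast and vessel genes, were 45.1 to 54.6 CPM in OSS 96 h and 90.6 to 94.4 CPM in Static 96 h, against 120.1 to 162 CPM in Static 0 h. Of the 6 tested markers in that list 4 fell and 1 (VWF) rose in the mean of both cultures, while the endothelial marker CDH5 and the leukocyte marker PTPRC stayed under 1 CPM in the 9 libraries. PECAM1, another endothelial marker, was too low to be tested, at 0.525 to 3.21 CPM over the 6 libraries at 96 h, against 0.399 to 0.671 CPM in Static 0 h. PDGFRB, the receptor for platelet-derived growth factor, and DES, which encodes desmin, fell in both cultures (mean log2 fold changes of -1.60 ± 0.14 and -1.06 ± 0.17 SE). DES lost its call in 1 of the cultures without Static 96 h replicate 2 or 3, with adjusted p up to 0.0662 in edgeR. In bulk RNA, fewer cells of a type and less RNA per cell cannot be told apart.

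In the mean of both cultures 4659 genes were called (36.3% of those tested), 2324 of which rose (18.1%) and 2335 fell (18.2%). In OSS 96 h 2495 genes rose (19.4%) and 2594 fell (20.2%) relative to Static 0 h, and in Static 96 h 2614 rose (20.4%) and 2492 fell (19.4%). The genes moved in both cultures numbered 1996 (15.5%), of which 1096 rose (8.54%) and 900 fell (7.01%). A further 550 genes (4.28%) were called in opposite directions, 222 of them (1.73%) higher in OSS 96 h and lower in Static 96 h than in Static 0 h, and 328 (2.55%) the reverse. Blocking on the replicate number gave 945 genes called in opposite directions. Without scaling factors the split leaned to falls, with 1666 rises and 3813 falls in the mean of both cultures and 728 rises and 1564 falls in both cultures. That setting moved the median log2 fold change of all tested genes to -0.13, compared with -0.02 under TMM.

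The genes that rose in both cultures had median log2 fold changes of 0.72 in OSS 96 h and 0.68 in Static 96 h, and those that fell had medians of -0.57 in OSS 96 h and -0.59 in Static 96 h. In the mean of both cultures 356 of the rises and 198 of the falls were at least 1 in size, and 123 rises and 30 falls were at least 2. The 6 libraries at 96 h lay wholly above the 3 at 0 h for 1060 of the rises (12.1% of all tested genes did so) and wholly below for 867 of the falls (10.7% of all). The call itself favours genes with such separation. OSS 96 h and Static 96 h differed directly for 32.3% of the rises and 36.9% of the falls, against 46.7% of all tested genes. Calling a gene only where both cultures had the same sign favours a lower share, so these shares are a description. Among the rises 189 went further in OSS 96 h and 165 further in Static 96 h, and among the falls 142 and 190.

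**Figure D1:**
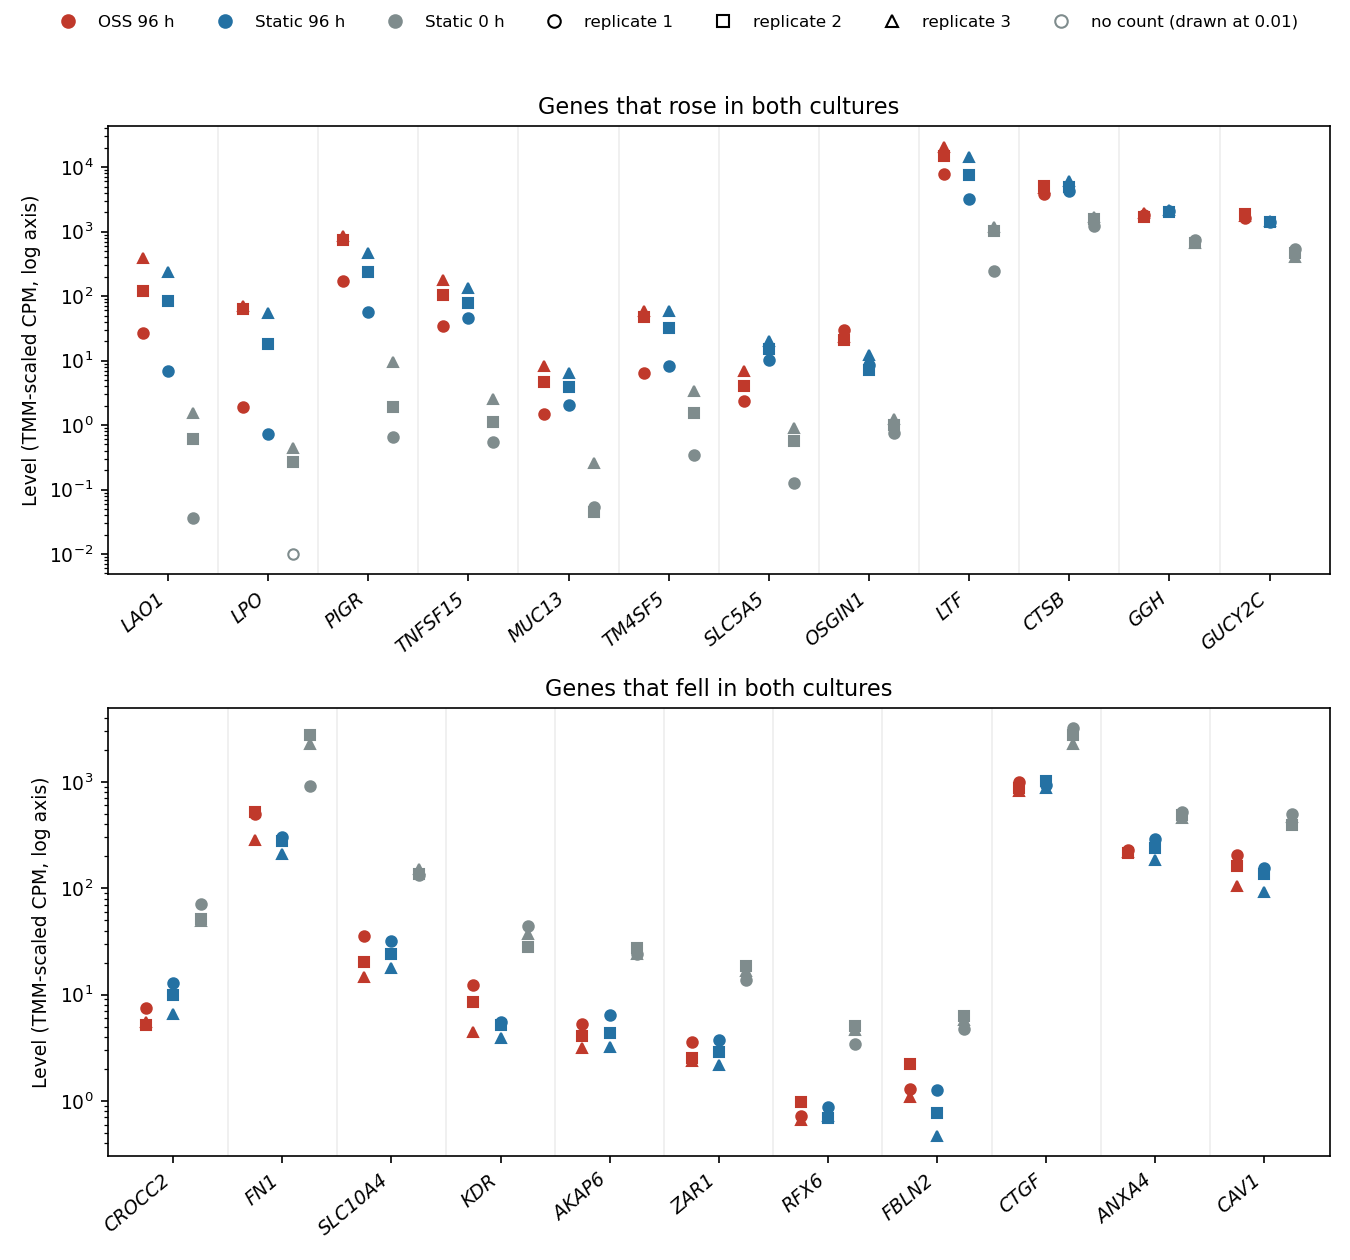
Level of each gene in the 9 libraries (TMM-scaled CPM, log axis), for the genes with the largest changes in both cultures that did not differ between them by test and the most abundant ones, rises above and falls below. Colours stand for the groups and marker shapes for the replicate numbers. By the rule that chose the genes, the 6 libraries at 96 h lie on one side of the 3 Static 0 h libraries in every column.

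Among the largest rises shared by the cultures were genes of mucosal defence. LAO1, which encodes an L-amino acid oxidase of secretions such as milk, was at 27.2, 122 and 390.2 CPM in OSS 96 h replicates 1, 2 and 3 and 6.91, 84.3 and 239.9 CPM in Static 96 h, against 0.0362, 0.605 and 1.56 CPM in Static 0 h. The libraries at 96 h lay above those at 0 h, while the 2 cultures overlapped each other, and replicate 1 was the lowest library of each group. The mean log2 fold change was 7.54 ± 1.99 (SE, edgeR adjusted p = 0.00769). PIGR, the receptor that carries polymeric immunoglobulins across epithelia, was at 172, 743 and 860.1 CPM in OSS 96 h and 56.1, 233 and 466 CPM in Static 96 h, against 0.652, 1.89 and 9.46 CPM in Static 0 h (6.58 ± 1.64, edgeR adjusted p = 0.00546). Here too every library at 96 h was above every library at 0 h, and replicate 1 was the lowest of each group. LPO (lactoperoxidase, which makes antimicrobial oxidants) was at 1.90, 63.5 and 70.0 CPM in OSS 96 h and 0.726, 17.9 and 55.6 CPM in Static 96 h. Its Static 0 h libraries held 0, 0.272 and 0.442 CPM, and the fitted change of 7.07 ± 1.90 rests on those few counts and on the prior count of the fit. LPO lost its call in 1 of the cultures without Static 96 h replicate 3 (adjusted p = 0.0506 in edgeR). MUC13, a membrane mucin, reached 1.48 to 8.37 CPM in OSS 96 h and 2.05 to 6.45 CPM in Static 96 h, against 0.0454 to 0.259 CPM in Static 0 h (5.17 ± 1.12).

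LTF, which encodes the iron-binding defence protein lactoferrin, took up a visible share of whole libraries. It was at 7757, 15015 and 20744 CPM in OSS 96 h and 3237, 7596 and 14506 CPM in Static 96 h, against 246, 1025 and 1179 CPM in Static 0 h, a mean log2 fold change of 3.76 ± 0.96 (SE, edgeR adjusted p = 0.00638). As a share of all raw counts this was 0.772 to 2.04% in OSS 96 h and 0.308 to 1.35% in Static 96 h, against 0.0255 to 0.127% in Static 0 h. The libraries at 96 h lay above those at 0 h, but the spread between replicates was wide. The call in 1 of the cultures was lost without Static 0 h replicate 1 or Static 96 h replicate 3 (adjusted p up to 0.0540 in edgeR). The antimicrobial and mucosal list held 37 genes, of which 13 were tested. Of these 10 rose and 1 fell in the mean of both cultures, and 9 rose in both (69.2%, against 8.54% of all tested genes). The list's median log2 fold change was 3.62 in OSS 96 h and 4.16 in Static 96 h, where the median of all tested genes was -0.01 and 0.00. Genes such as LPO and MUC13 passed the expression filter only through libraries at 48 and 96 h, where they were high. The filter favours rises among such genes, so these counts and medians are a description.

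Inflammatory signals rose beside them. TNFSF15, a cytokine of the tumour necrosis factor family, was at 34.8, 104 and 178 CPM in OSS 96 h and 45.3, 77.9 and 135 CPM in Static 96 h, against 0.544, 1.10 and 2.55 CPM in Static 0 h (6.07 ± 1.23, edgeR adjusted p = 0.00129). The libraries at 96 h lay far above Static 0 h, and the 2 cultures did not differ by test (OSS 96 h minus Static 96 h of 0.29, edgeR adjusted p = 0.827). VCAM1, an adhesion molecule for leukocytes that also appears on injured tubules, was at 35.1, 43.8 and 76.4 CPM in OSS 96 h and 67.4, 62.0 and 84.9 CPM in Static 96 h, against 4.95, 5.28 and 9.23 CPM in Static 0 h (3.23 ± 0.63). The chemokine CCL20 was at 467 to 532 CPM in OSS 96 h and 782 to 1175 CPM in Static 96 h, against 60.2 to 167 CPM in Static 0 h (2.66 ± 0.46). Of 25 tested genes of inflammation and NF-kB, the transcription factor downstream of tumour necrosis factor, 18 rose and 0 fell in the mean of both cultures (18.1% and 18.2% of all tested genes did). In both cultures 11 rose (44%, against 8.54% of all). The 11 became 7 without Static 0 h replicate 1. In no gene of this list was OSS 96 h the higher of the 2 cultures by test (22.7% of all). Another 12 were lower in OSS 96 h than in Static 96 h (48%, against 24.0% of all). Class I antigen presentation moved the same way for B2M, its light chain, at 323 to 632 CPM in OSS 96 h and 718 to 922 CPM in Static 96 h, against 197 to 241 CPM in Static 0 h (1.51 ± 0.27).

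Other large rises, in genes called in both cultures and not apart between them by test, were those of TM4SF5 (a tetraspan membrane protein), the sodium iodide symporter SLC5A5 and OSGIN1, a growth inhibitor induced by oxidative stress. OSGIN1 was at 30.1, 21.2 and 23.2 CPM in OSS 96 h and 8.65, 7.07 and 12.3 CPM in Static 96 h, against 0.743, 0.999 and 1.25 CPM in Static 0 h (3.92 ± 0.65, edgeR adjusted p = 2.67e-04). Here the replicates lay close together, the 3 groups were separate and replicate 1 was the highest library of OSS 96 h (OSS 96 h minus Static 96 h of 1.41, edgeR adjusted p = 0.0616). SLC5A5 was at 2.35, 4.09 and 6.94 CPM in OSS 96 h and 10.3, 15.2 and 20.4 CPM in Static 96 h, against 0.127, 0.560 and 0.915 CPM in Static 0 h (3.93 ± 0.96). Its 3 groups were separate too, with OSS 96 h below Static 96 h (difference of -1.77, edgeR adjusted p = 0.112). TM4SF5 changed by 4.31 ± 1.06. SLC5A5 lost its call in 1 of the cultures without Static 0 h replicate 1 or 2 or OSS 96 h replicate 3 (adjusted p up to 0.0777 in edgeR). Among abundant transcripts, GGH, a lysosomal hydrolase of folate polyglutamates, was at 1821, 1666 and 1951 CPM in OSS 96 h and 2093, 2021 and 2192 CPM in Static 96 h, against 749.7, 675 and 672 CPM in Static 0 h (1.48 ± 0.13, edgeR adjusted p = 1.41e-06). GUCY2C, the guanylate cyclase receptor for guanylin peptides, was at 1631 to 1853 CPM in OSS 96 h and 1416 to 1482 CPM in Static 96 h, against 404 to 544 CPM in Static 0 h (1.76 ± 0.15). For both genes the spread within a group was small beside the change.

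A few genes rose in both cultures by unequal amounts. LOC100620004, a protein-coding locus that the gene table names only by number, was at 190.0, 325 and 651 CPM in OSS 96 h and 4394, 3570 and 4699 CPM in Static 96 h, against 2.81, 8.22 and 22.1 CPM in Static 0 h. All 3 groups were separate, and OSS 96 h minus Static 96 h was -3.44 (edgeR adjusted p = 0.0152). LBP, which binds bacterial lipopolysaccharide, and REG3G, an antibacterial lectin, also went further in Static 96 h (4.16 to 12.2 and 5.65 to 8.65 CPM) than in OSS 96 h (0.775 to 2.70 and 1.20 to 1.98 CPM). Both had under 0.25 CPM in every Static 0 h library. FAM151A went further in OSS 96 h, with 24.5, 34.3 and 54.7 CPM in OSS 96 h and 3.06, 4.38 and 9.99 CPM in Static 96 h, against 0.344, 1.18 and 1.08 CPM in Static 0 h.

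**Figure D2:**
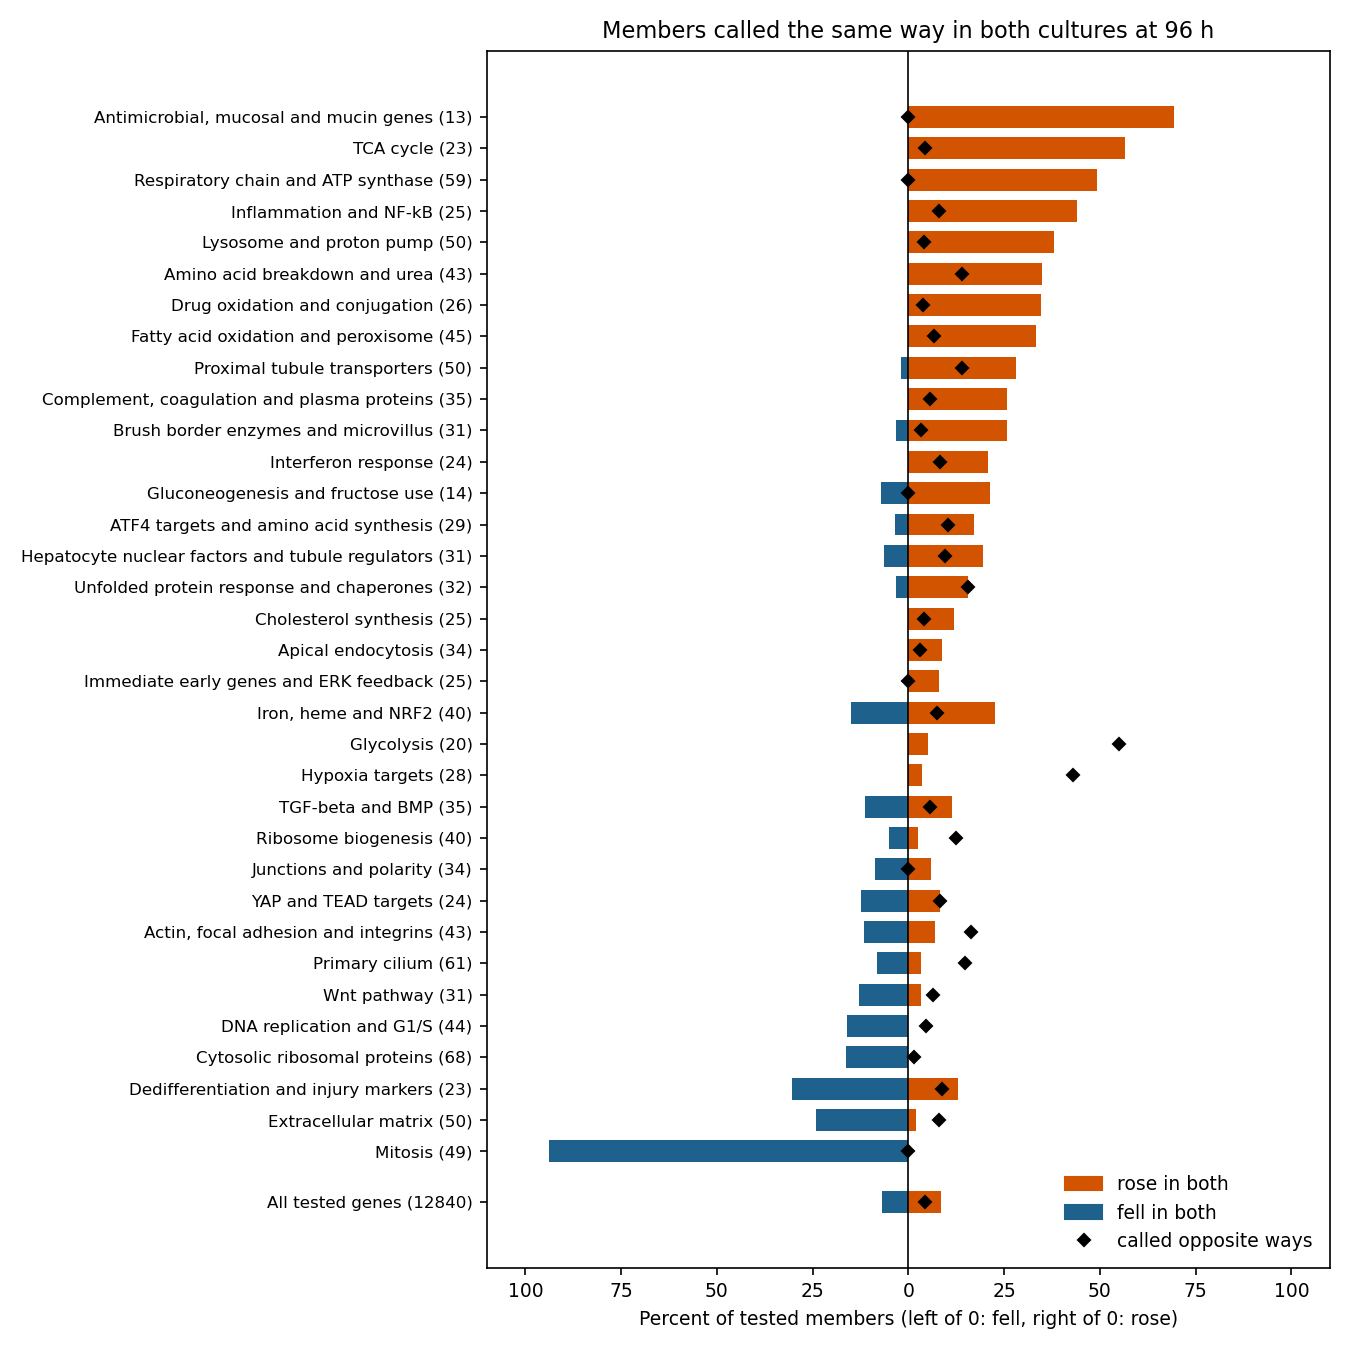
Percent of the tested members of each gene list (number in brackets) that rose in both cultures (bars right of 0) or fell in both (bars left of 0), with diamonds, read on the right scale, for the percent called in opposite directions. Mitosis genes fell in both for 46 of 49 (7.01% of all tested genes did), and glycolysis genes were called in opposite directions for 11 of 20 (4.28% of all).

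Genes of the differentiated tubule rose in part. List counts here and below are to be set beside the shares of all tested genes. Of these 18.1% rose and 18.2% fell in the mean of both cultures, and 8.54% rose and 7.01% fell in both. By test 22.7% were higher and 24.0% lower in OSS 96 h than in Static 96 h, and 4.28% were called in opposite directions. Of 50 tested transporters of the proximal tubule 26 rose and 3 fell in the mean, and 14 rose (28%) and 1 fell (2%) in both. SLC34A3, a sodium phosphate cotransporter of the brush border, was at 37.6, 56.0 and 68.5 CPM in OSS 96 h and 35.6, 62.1 and 89.2 CPM in Static 96 h, against 2.17, 5.25 and 4.65 CPM in Static 0 h (3.84 ± 0.39, edgeR adjusted p = 4.43e-06). SLC5A11, a sodium-coupled inositol transporter, was at 24.0, 21.8 and 25.2 CPM in OSS 96 h and 19.4, 20.8 and 31.1 CPM in Static 96 h, against 4.58, 4.96 and 4.74 CPM in Static 0 h (2.32 ± 0.23, edgeR adjusted p = 3.54e-06). In both genes the cultures overlapped each other and lay apart from Static 0 h. The neutral amino acid transporter SLC6A19 was at 1245 to 1425 CPM in OSS 96 h and 629 to 844 CPM in Static 96 h, against 166 to 269 CPM in Static 0 h (2.24 ± 0.18). The nucleoside transporter SLC28A2 rose by 2.20 ± 0.29 and went further in Static 96 h. Over the whole transporter list the median log2 fold change was 0.82 in OSS 96 h and 0.10 in Static 96 h, and 7 members were called in opposite directions (14%, against 4.28% of all).

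The brush border peptidases DPEP1, ANPEP and MEP1A rose in both cultures and further in OSS 96 h. DPEP1, a dipeptidase that also splits glutathione products, was at 439, 374 and 234 CPM in OSS 96 h and 88.0, 87.7 and 57.2 CPM in Static 96 h, against 30.8, 36.4 and 33.9 CPM in Static 0 h (2.29 ± 0.24, edgeR adjusted p = 6.63e-06). All 3 groups were separate. ANPEP (aminopeptidase N) was at 559 to 629 CPM in OSS 96 h and 222 to 284 CPM in Static 96 h, against 87.2 to 109 CPM in Static 0 h (1.92 ± 0.17), and MEP1A, a subunit of meprin, rose by 1.94 ± 0.31. Of 31 tested genes of brush border enzymes and microvilli 15 rose and 2 fell in the mean of both cultures, and 8 rose (25.8%) and 1 fell (3.23%) in both. The 8 became 5 without Static 96 h replicate 3. Of 34 genes of apical endocytosis 9 rose and 3 fell in the mean, and 3 rose in both cultures (8.82%, near the 8.54% of all tested genes), among them AMN, which anchors cubilin, at 282, 323 and 325 CPM in OSS 96 h and 255, 275 and 301 CPM in Static 96 h, against 118, 137 and 115 CPM in Static 0 h (1.24 ± 0.11, edgeR adjusted p = 1.41e-06). LRPAP1, the chaperone of megalin, was at 1235 to 1260 CPM in OSS 96 h and 1451 to 1467 CPM in Static 96 h, against 681 to 921 CPM in Static 0 h (0.76 ± 0.08). CDH1, the cadherin of adherens junctions in most epithelia, rose (1.88 ± 0.33) and CDH6, the cadherin of immature and proximal tubule, fell (-0.85 ± 0.14) in both cultures. DSP, of the same list of junctions and polarity, fell too (-0.70 ± 0.08). Of the 34 tested members of that list 2 rose (5.88%) and 3 fell (8.82%) in both, near the 8.54% and 7.01% of all tested genes.

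Lysosomal genes rose with like medians in the 2 cultures, while single members leaned either way. CTSB (cathepsin B) was at 3851, 5079 and 4681 CPM in OSS 96 h and 4331, 4964 and 6058 CPM in Static 96 h, against 1211, 1565 and 1684 CPM in Static 0 h (1.70 ± 0.29, edgeR adjusted p = 3.20e-04). The 2 cultures overlapped each other and lay above every Static 0 h library. LGMN, an asparaginyl protease, was at 2953, 2522 and 1864 CPM in OSS 96 h and 1577, 1478 and 1273 CPM in Static 96 h, against 528, 476 and 466 CPM in Static 0 h (1.94 ± 0.17). CTSS (cathepsin S) leaned to the other culture, with 13.1 to 16.0 CPM in OSS 96 h and 53.9 to 76.9 CPM in Static 96 h, against 5.87 to 8.99 CPM in Static 0 h. Of 50 tested genes of lysosomes and the proton pump 29 rose and 1 fell in the mean, and 19 rose (38%, against 8.54% of all tested genes) and 0 fell in both cultures. The medians were 0.41 in OSS 96 h and 0.36 in Static 96 h. By test 16 members were higher (32%, against 22.7% of all tested genes) and 12 lower (24%, against 24.0%) in OSS 96 h than in Static 96 h.

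Of the mitochondrial genes tested most rose in the mean of both cultures, with median log2 fold changes in that mean of 0.42 for the respiratory chain and 0.46 for the TCA (tricarboxylic acid) cycle. COX7C, a subunit of cytochrome c oxidase, was at 105, 111 and 104 CPM in OSS 96 h and 101, 102 and 102 CPM in Static 96 h, against 66.4, 59.5 and 61.6 CPM in Static 0 h (0.74 ± 0.06, edgeR adjusted p = 1.07e-06). ATP5MC1, of the ring of ATP synthase, was at 658, 646 and 606 CPM in OSS 96 h and 601, 612 and 605 CPM in Static 96 h, against 388, 336 and 381 CPM in Static 0 h (0.75 ± 0.09, edgeR adjusted p = 1.57e-05). Neither gene overlapped between 96 h and 0 h, and the cultures were not apart by test (edgeR adjusted p = 0.444 for COX7C and 0.585 for ATP5MC1). COX7B, another oxidase subunit, rose by 0.83 ± 0.08. Of 59 tested genes of the respiratory chain and ATP synthase 42 rose and 0 fell in the mean, and 29 rose (49.2%, against 8.54% of all tested genes) and 0 fell in both cultures. In the mean 17 were not called. By test 10 members were higher (16.9%, against 22.7% of all tested genes) and 5 lower (8.47%, against 24.0%) in OSS 96 h than in Static 96 h. The 29 became 44 in the fit blocked on replicate number and 19 without scaling factors. In the TCA cycle 19 of 23 rose and 1 fell in the mean and 13 rose in both (56.5%), among them the isocitrate dehydrogenase IDH1 (0.90 ± 0.16). Of the 23 members 12 were higher (52.2%) and 1 lower (4.35%) in OSS 96 h than in Static 96 h, with medians of 0.62 in OSS 96 h and 0.37 in Static 96 h.

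Fatty acid and amino acid catabolism followed with wider differences between the cultures. Of 45 tested genes of fatty acid oxidation and peroxisomes 28 rose and 0 fell in the mean, and 15 rose in both (33.3%, against 8.54% of all tested genes). The medians were 0.53 in OSS 96 h and 0.24 in Static 96 h. By test 25 members were higher (55.6%, against 22.7% of all) and 3 lower (6.67%, against 24.0%) in OSS 96 h than in Static 96 h. CYP4A11, a fatty acid hydroxylase, was at 389, 300.1 and 239 CPM in OSS 96 h and 33.1, 25.4 and 24.9 CPM in Static 96 h, against 5.84, 3.59 and 7.45 CPM in Static 0 h (4.04 ± 0.32, edgeR adjusted p = 8.07e-07). All 3 groups were separate, with OSS 96 h far above Static 96 h. DAO, a peroxisomal D-amino acid oxidase, was at 93.2, 94.9 and 86.6 CPM in OSS 96 h and 86.0, 106 and 114 CPM in Static 96 h, against 31.5, 42.1 and 26.2 CPM in Static 0 h (1.54 ± 0.16). The peroxisomal enzymes PIPOX (2.16 ± 0.19) and PHYH (1.01 ± 0.08) rose as well. Among 43 genes of amino acid breakdown 24 rose and 2 fell in the mean and 15 rose in both (34.9%), and the 15 became 7 without scaling factors. The list's median was 0.74 in OSS 96 h and 0.06 in Static 96 h. By test 30 members were higher (69.8%) and 5 lower (11.6%) in OSS 96 h than in Static 96 h, and 6 were called in opposite directions (14%, against 4.28% of all tested genes). HAAO, of tryptophan breakdown, was at 187 to 268 CPM in OSS 96 h and 122 to 185 CPM in Static 96 h, against 26.5 to 40.5 CPM in Static 0 h (2.45 ± 0.23). GLUL (glutamine synthetase), an enzyme of synthesis rather than breakdown, rose too (1.72 ± 0.32). It was at 1108 to 1435 CPM in OSS 96 h and 1551 to 1670 CPM in Static 96 h, against 360.2 to 486 CPM in Static 0 h. DMGDH, of choline breakdown, rose by 2.38 in OSS 96 h and 0.72 in Static 96 h. Of 26 genes of drug oxidation and conjugation 14 rose and 1 fell in the mean and 9 rose in both (34.6%), with NAT8, which acetylates cysteine conjugates, at 118 to 165 CPM in OSS 96 h and 151 to 192 CPM in Static 96 h, against 14.2 to 21.6 CPM in Static 0 h (3.06 ± 0.54), and the flavin monooxygenase FMO1 rising by 3.57 ± 0.53.

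Mitosis genes showed the most uniform fall of the lists. CENPF, a kinetochore protein that peaks in late cycle, was at 179.8, 167 and 245 CPM in OSS 96 h and 129, 116 and 109 CPM in Static 96 h, against 399, 339.6 and 485 CPM in Static 0 h (-1.42 ± 0.17, edgeR adjusted p = 2.05e-05). BUB1, a kinase of the spindle checkpoint, was at 53.3, 43.5 and 63.7 CPM in OSS 96 h and 31.5, 32.8 and 25.1 CPM in Static 96 h, against 97.0, 87.2 and 106 CPM in Static 0 h (-1.28 ± 0.15, edgeR adjusted p = 1.72e-05). In both genes the 3 groups were separate, in the order Static 96 h, OSS 96 h and Static 0 h, low to high. The kinetochore motor CENPE and cyclin CCNB3 fell by 1.32 on the log2 scale each. All 49 tested members fell in the mean of both cultures and 46 fell in both (93.9%, against 7.01% of all tested genes). The exceptions in OSS 96 h were FOXM1, SMC2 and CENPK, named here after their values were seen. The median log2 fold change was -0.69 in OSS 96 h and -1.23 in Static 96 h, and 43 of 49 members were higher in OSS 96 h than in Static 96 h by test, against 22.7% of all tested genes (24.0% were lower). Within replicate numbers 1, 2 and 3 the list's median difference from 0 h was -0.71, -0.70 and -0.64 in OSS 96 h and -1.16, -1.05 and -1.45 in Static 96 h.

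Genes of DNA replication and the entry into S phase fell less. Of 44 tested members 20 fell and 0 rose in the mean of both cultures, but only 7 fell in both (15.9%, against 7.01% of all tested genes). That count was 2 to 8 with 1 of the 9 libraries left out. It was 2 when Static 0 h replicate 3 was dropped, 3 when either OSS 96 h replicate 1 or 2 was, and 4 if no expression filter was set. CCNE1 (cyclin E) was at 6.25, 5.76 and 4.79 CPM in OSS 96 h and 3.21, 3.32 and 3.17 CPM in Static 96 h, against 10.4, 13.7 and 9.46 CPM in Static 0 h (-1.39 ± 0.13, edgeR adjusted p = 2.23e-06). The groups were separate. RFC5, a loader of the replication clamp, was at 12.1 to 16.8 CPM in OSS 96 h and 12.9 to 13.9 CPM in Static 96 h, against 22.3 to 24.3 CPM in Static 0 h (-0.72 ± 0.13). The list's median was -0.07 in OSS 96 h and -0.53 in Static 96 h, and 26 of its members were higher in OSS 96 h than in Static 96 h (59.1%, against 22.7% of all).

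**Figure D3:**
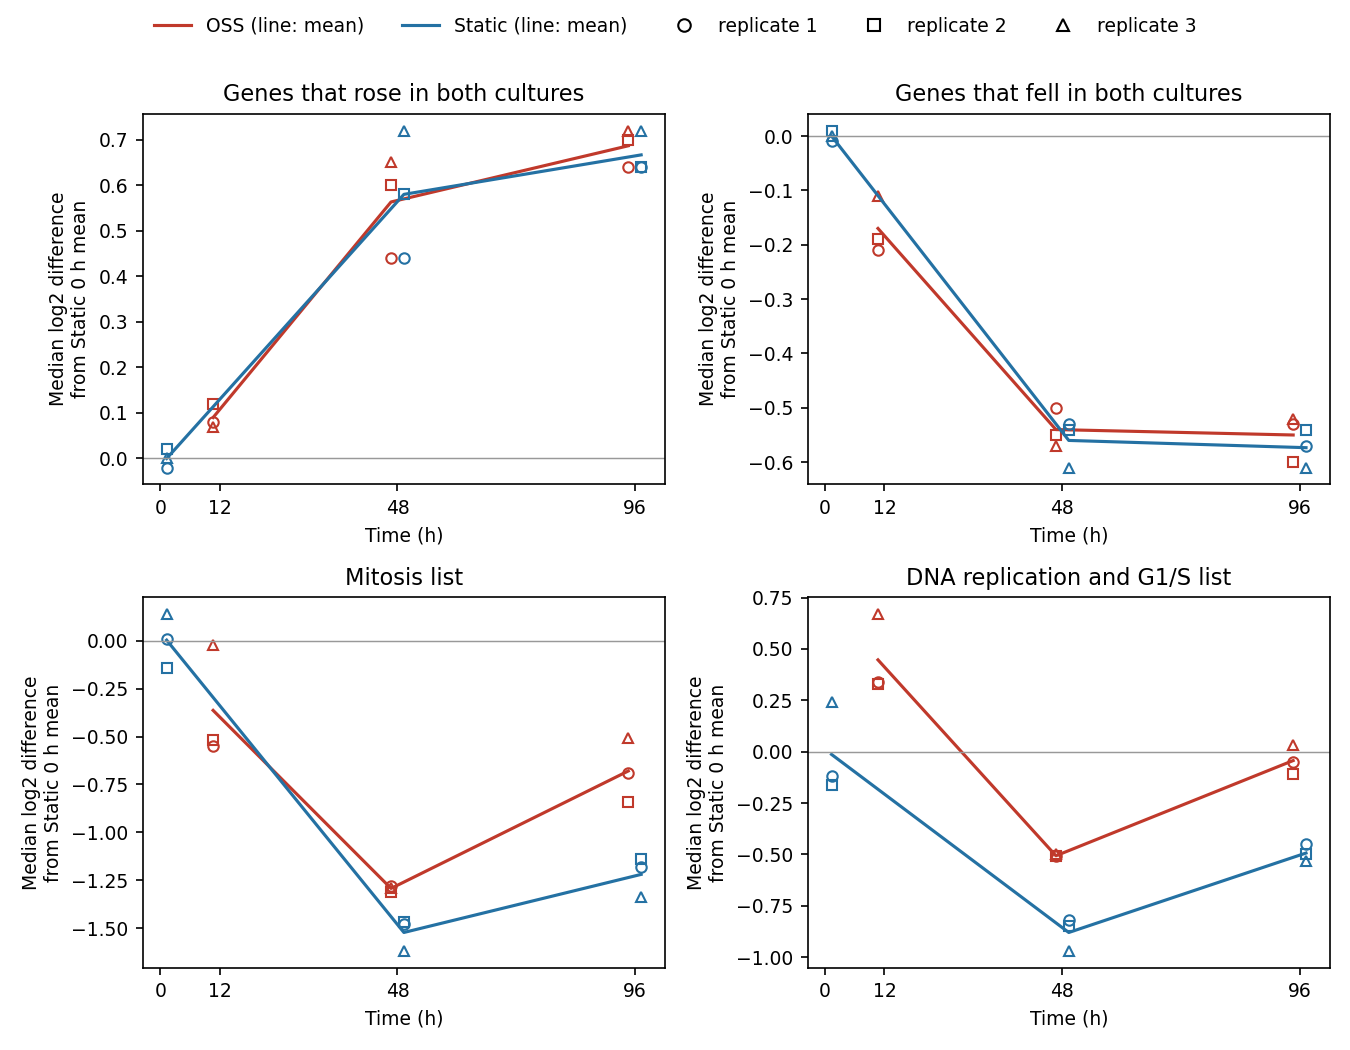
Median log2 difference of each library from the mean of Static 0 h against time (h), for the genes that rose in both cultures, those that fell in both, and the mitosis and DNA replication lists. Points are libraries and lines join the means of 3, with red for OSS and blue for static culture. Both cultures sit close together in the upper panels, and OSS lies above static culture at 48 and 96 h in the lower panels.

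The earlier libraries show when the changes appeared, although the gene sets were chosen at 96 h and all differences share Static 0 h. The genes that rose in both cultures had a median log2 difference of 0.09 at OSS 12 h, 0.56 at OSS 48 h and 0.69 at OSS 96 h, and of 0.60 at Static 48 h and 0.66 at Static 96 h. The genes that fell had medians of -0.17, -0.54 and -0.55 along OSS and -0.57 and -0.57 at Static 48 h and Static 96 h. Most of the median change was in place at 48 h. LTF had means of 954, 4849 and 14505 CPM at 12, 48 and 96 h of OSS and 817, 4712 and 8446 CPM at 0, 48 and 96 h of static culture. Its mean at 48 h was below that at 96 h, but the replicates spread widely. The SD was 3330 CPM at OSS 48 h, 6509 at OSS 96 h, 4162 at Static 48 h and 5683 at Static 96 h. Of the 13 antimicrobial and mucosal genes 0 changed by test between 48 and 96 h in either culture. The mitosis list had medians of -0.37, -1.29 and -0.67 along OSS and -1.53 and -1.22 at Static 48 h and Static 96 h. Between OSS 96 h and OSS 48 h 27 of its 49 members rose and 0 fell, against 1.46% of all tested genes that rose and 0.950% that fell, while 0 changed by test between Static 96 h and Static 48 h (median 0.29), where 0.140% of all genes rose and 0.319% fell. With 1 of the OSS 48 h libraries (replicates 1, 2 and 3) left out the 27 became 1, 3 and 1, and with 1 of the OSS 96 h libraries left out they became 8, 15 and 1, so the count rests on all 6. The replication list had medians of 0.46, -0.52 and -0.06 along OSS and -0.92 and -0.50 along static culture. Respiratory chain genes had medians of 0.42, 0.77 and 0.47 along OSS and 0.43 and 0.36 along static culture.

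Matrix and mesenchymal genes fell in part. FN1 (fibronectin) was at 497, 516 and 285 CPM in OSS 96 h and 303, 279 and 208 CPM in Static 96 h, against 909, 2787 and 2251 CPM in Static 0 h (-2.55 ± 0.31, edgeR adjusted p = 2.00e-05). Static 0 h replicate 1 lay well below its partners but above every library at 96 h. CTGF, a matricellular growth factor and a target of the transcriptional regulator YAP, was at 988, 871 and 824 CPM in OSS 96 h and 931, 1021 and 881 CPM in Static 96 h, against 3181, 2761 and 2275 CPM in Static 0 h (-1.58 ± 0.20, edgeR adjusted p = 2.57e-05). The 2 cultures overlapped and lay well below Static 0 h. VIM (vimentin) was at 248, 161 and 179.8 CPM in OSS 96 h and 595, 421 and 368 CPM in Static 96 h, against 1072, 918 and 777 CPM in Static 0 h (-1.62 ± 0.19). COL12A1 (-1.66 ± 0.17) and FBLN2 (-2.31 ± 0.30), a fibril-associated collagen and a fibulin of the matrix, fell in both cultures. So did the collagen chain COL11A1 (-2.56 ± 0.28), at 0.460 to 0.972 CPM in OSS 96 h and 3.15 to 6.36 CPM in Static 96 h, against 8.96 to 14.1 CPM in Static 0 h, which lost its call in Static 96 h without Static 0 h replicate 2 or Static 96 h replicate 3 (adjusted p up to 0.0586 in edgeR). Of 50 tested matrix genes 27 fell and 6 rose in the mean. In both cultures 12 fell (24%, against 7.01% of all tested genes) and 1 rose (2%, against 8.54%), with medians of -0.65 in OSS 96 h and -0.17 in Static 96 h. The summed markers of other cells given above fell along with this list, and their part in it was not tested. Of 24 YAP targets 6 fell and 2 rose in the mean, where 18.2% and 18.1% of all tested genes did, and 3 fell (12.5%) and 2 rose (8.33%) in both cultures. CTGF thus did not stand for the list. Of 23 tested markers of dedifferentiation and injury 10 fell and 3 rose in the mean, and 7 fell (30.4%) and 3 rose (13%) in both, VCAM1 among the rises. The list's median was -0.89 in OSS 96 h and 0.00 in Static 96 h. By test 14 members were lower in OSS 96 h than in Static 96 h (60.9%, against 24.0% of all tested genes). Only 1 was higher (4.35%, against 22.7%), and 2 were called in opposite directions (8.7%, against 4.28%).

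Other large falls, in genes not apart between the cultures by test, came from genes with varied roles. CROCC2, related to the rootletin of the ciliary rootlet, was at 7.55, 5.15 and 5.50 CPM in OSS 96 h and 12.8, 9.87 and 6.59 CPM in Static 96 h, against 70.8, 51.4 and 49.0 CPM in Static 0 h (-2.90 ± 0.23, edgeR adjusted p = 8.07e-07). KDR, a receptor for vascular endothelial growth factor, was at 12.3, 8.43 and 4.47 CPM in OSS 96 h and 5.50, 5.13 and 3.89 CPM in Static 96 h, against 44.3, 27.8 and 37.0 CPM in Static 0 h (-2.52 ± 0.32, edgeR adjusted p = 2.71e-05). In both genes each library at 96 h was far below each library at 0 h. SLC10A4 (-2.55 ± 0.27), a relative of the bile acid carriers, AKAP6 (-2.51 ± 0.22), an anchor of protein kinase A, ZAR1 (-2.51 ± 0.21), known from oocytes, and RFX6 (-2.50 ± 0.27), a transcription factor of pancreatic endocrine cells, fell by like amounts. Among abundant transcripts the annexin ANXA4 (-1.10 ± 0.13) and CAV1 (-1.68 ± 0.22), the coat protein of caveolae, fell. Among the largest falls that differed between the cultures, the protease inhibitor SPINK6 was at 0.600, 0.833 and 0.435 CPM in OSS 96 h and 1.63, 3.09 and 1.62 CPM in Static 96 h, against 35.3, 23.1 and 28.2 CPM in Static 0 h. The galectin LGALS7 (-4.92 in OSS 96 h and -2.38 in Static 96 h) and the cornified envelope protein SCEL (-3.61 in OSS 96 h and -2.12 in Static 96 h) also fell further in OSS 96 h.

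Cytosolic ribosomal protein genes fell as a block in the mean of both cultures, 44 of 68 with 0 rises, but the fall was mostly that of OSS 96 h. Their median was -0.53 in OSS 96 h and -0.07 in Static 96 h. By test 53 of the 68 were lower in OSS 96 h than in Static 96 h (77.9%, against 24.0% of all tested genes), and 11 fell in both (16.2%, against 7.01%). The 11 became 3 when Static 0 h replicate 2 was left out, 5 when Static 96 h replicate 3 was, 7 in a fit on the 9 libraries alone and 25 with raw library sizes. RPS7, of the small subunit, was at 1482, 1349 and 1503 CPM in OSS 96 h and 1960, 2017 and 1894 CPM in Static 96 h, against 2212, 2651 and 2376 CPM in Static 0 h (-0.52 ± 0.08). It lost its call in Static 96 h without Static 0 h replicate 2 (adjusted p = 0.0643 in edgeR).

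**Figure D4:**
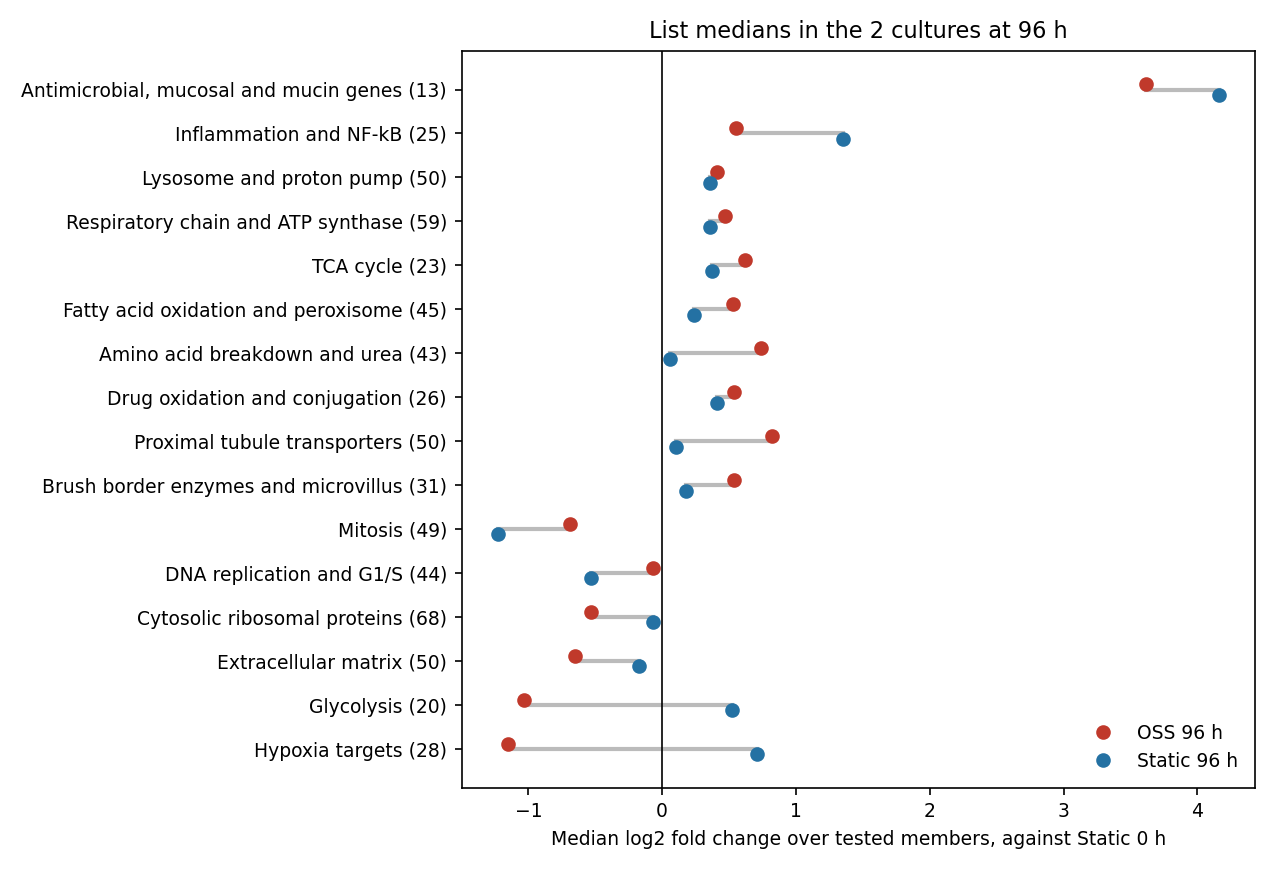
Median log2 fold change against Static 0 h over the tested members of 16 gene lists (number in brackets), in red for OSS 96 h and blue for Static 96 h. Lysosome and respiratory chain medians lie close together, and those of glycolysis and hypoxia targets lie on opposite sides of 0.

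Glycolysis and the targets of hypoxia did not share a direction between the cultures. Of 20 tested glycolysis genes 11 were called lower in OSS 96 h and higher in Static 96 h than in Static 0 h (55%, against 2.55% of all tested genes). Another 1 rose in both and 0 fell in both, with medians of -1.03 in OSS 96 h and 0.52 in Static 96 h. Of 28 hypoxia targets 12 were called in those opposite directions (42.9%) and 1 rose in both, with medians of -1.15 in OSS 96 h and 0.71 in Static 96 h. The gene that rose in both, in each list, was PFKFB4, which sets the level of fructose 2,6-bisphosphate, at 34.5, 42.9 and 54.3 CPM in OSS 96 h and 49.1, 57.2 and 73.0 CPM in Static 96 h, against 21.4, 24.4 and 20.3 CPM in Static 0 h (1.22 ± 0.18, edgeR adjusted p = 8.68e-05). Its 6 libraries at 96 h lay above Static 0 h. The largest opposite changes were those of ANKRD1, a stretch-responsive nuclear ankyrin protein, at 0.375, 0.208 and 0.166 CPM in OSS 96 h and 36.0, 28.2 and 23.4 CPM in Static 96 h, against 0.725, 1.65 and 1.71 CPM in Static 0 h, and of TMEM130, DNAH3 and PSTPIP1. For all 4 genes OSS 96 h was the lowest and Static 96 h the highest group, with no overlap, and a mean over the cultures hides both changes.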

How the data were processed

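The authors removed rRNA, sequenced stranded total RNA as paired reads and trimmed with cutadapt. They aligned to MonDom5, the Monodelphis domestica genome, with TopHat2, and let reads map with several mismatched bases. Reads of rRNA and mitochondria were discarded and the rest counted with featureCounts (Subread). The effect of the allowed mismatches on the levels of single genes or on related genes was not tested. The table they deposited gives raw counts per Ensembl gene. Versions, strand setting and annotation release are not given in the sources used here, so reads of overlapping or antisense genes may be shared.

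All 18 libraries were fitted in R 4.3.3 with edgeR 4.0.16 (limma 3.58.1): TMM, trended qCML dispersions, quasi-likelihood F-test (legacy), Benjamini-Hochberg over 12840 genes, threshold 0.05. SE is the log2 change divided by the root of F. Counting error was far below the spread between replicates (chi-square per gene of at least 37.2). The script was tested on simulated data. Deviations of same-numbered libraries correlated in all 9 pairs (r 0.27 to 0.70), so the replicate number was tried as a block. DESeq2 1.42.0, other scalings, no filter, the 9 libraries alone, a sheet with 1 entry per gene name, and leaving out each library were the other alternatives. Figures used matplotlib 3.10.9.

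The members and the 37 gene lists were chosen with earlier results of these data known. Genes named are the 8 largest changes per direction not apart between the cultures by test (1 identifier, logCPM of at least 1, no overlap), the 4 most abundant of at least 1 in size, the 4 largest that differ between cultures, up to 4 per list and 4 opposite ones. Results of some single genes are left out here. No sequence or coordinate is given, since the gene table at hand is of another assembly.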

Additional observations from a re-analysis of the deposited data

Results flagged for a closer look

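Of 85 genes given with a fold change, 38 differed between OSS 96 h and Static 96 h (edgeR adjusted p under 0.05). Of all tested genes 46.7% did so. Some of the 85 were picked for passing or failing this same test, so the count is a description of the selection. All of the 38 but ANKRD1, DNAH3, PSTPIP1 and TMEM130 had moved the same way in both cultures from Static 0 h. The values are OSS 96 h minus Static 96 h on the log2 scale.

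Among the genes that rose in both cultures, OSS 96 h was higher for CYP4A11 (3.48), FAM151A (2.70), DPEP1 (2.17), DMGDH (1.66), FMO1 (1.46), ANPEP (1.27), MEP1A (1.26), SLC6A19 (0.87), LGMN (0.76), PIPOX (0.72), HAAO (0.61), PHYH (0.36), HERPUD1 (0.33) and COX7B (0.28). OSS 96 h was lower for LOC100620004 (-3.44), LBP (-2.43), REG3G (-2.12), CTSS (-2.09), CEBPB (-1.09), SLC28A2 (-1.03) and B2M (-0.79).

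Among the genes that fell in both, OSS 96 h was lower for COL11A1 (-2.78), LGALS7 (-2.53), SPINK6 (-1.77), SCEL (-1.49), PDGFRB (-1.47), VIM (-1.23), DES (-0.75) and RPS7 (-0.44), and higher for the cycle genes BUB1 (0.84), CCNE1 (0.79), CENPE (0.79), CENPF (0.74) and CCNB3 (0.65). The genes called in opposite directions had differences of -6.96 (ANKRD1), -5.30 (DNAH3), -5.29 (PSTPIP1) and -5.04 (TMEM130).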

How the results depend on the processing

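The 1996 genes that moved in both cultures were all called with the replicate number as a block (2788 in all), and that block ended no call of a named gene. DESeq2 called 2203, 1994 of them shared, and 1628 to 1822 were called with 1 of the 9 libraries left out. No named gene reversed under any alternative, and 103 of 145 kept the call in every one. The named genes were picked for their calls in the main fit, which makes a reversal unlikely, so the lack of reversals is a description. Without scaling factors the split of shared changes turned to falls (31.8% rose, against 54.9% with TMM): 3813 genes fell in the mean of both cultures, 728 rose and 1564 fell in both, and the lists gave 19 respiratory chain rises, 7 amino acid rises and 25 ribosomal protein falls. Under that setting median log2 changes in the mean were -1.09 (mitosis), -0.55 (matrix), 0.30 (transporters), 0.19 (lysosome), 0.31 (respiratory chain), 0.34 (TCA cycle) and 0.32 (amino acid breakdown). Without the filter 4 replication genes fell in both, and with the 9 libraries alone 7 ribosomal protein genes. The block gave 945 opposite genes and 44 respiratory chain rises. With 1 library left out, the ranges were 7 to 12 inflammation rises, 3 to 12 ribosomal protein falls, 2 to 8 replication falls, 5 to 8 brush border rises, 1 to 15 mitosis rises between OSS 48 h and OSS 96 h (alternatives chosen after seeing the data), a lysosome median of 0.27 to 0.34 and an antimicrobial median of 3.33 to 4.12. The cause was not tested. With 3 pooled samples a group, small changes of genes near 1 CPM are the least certain.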

Other observations

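Over all tested genes 15.5% moved the same way in both cultures and 4.28% in opposite directions. Of 40 tested genes of iron, heme and the oxidative stress regulator NRF2 9 rose and 6 fell in both (37.5%). Of 32 genes of the unfolded protein response and chaperones 5 rose and 1 fell in both (18.8%, near the share of all genes), and 5 were called in opposite directions (15.6%). The list's median was 0.38 in OSS 96 h and -0.23 in Static 96 h. By test 22 members were higher (68.8%, against 22.7% of all) and 1 lower (3.12%, against 24.0%) in OSS 96 h than in Static 96 h. HERPUD1, of the disposal of misfolded proteins, was at 417, 455 and 453 CPM in OSS 96 h and 335, 346 and 370.4 CPM in Static 96 h, against 180.0, 202 and 174 CPM in Static 0 h (log2 fold change 1.09 ± 0.10 SE, edgeR adjusted p = 2.27e-06), and XBP1, the transcription factor of that response, rose by 1.40 ± 0.29. Of 31 tested genes in a mixed list of hepatocyte nuclear factors and other regulators 6 rose and 2 fell in both (25.8%). The rises included the transcription factors CEBPB (1.82 ± 0.31) and CEBPD, at 155, 126 and 126 CPM in OSS 96 h and 152, 105 and 132 CPM in Static 96 h, against 69.0, 53.2 and 72.0 CPM in Static 0 h (1.03 ± 0.23). The proximal tubule marker HNF4A was at 184 to 206 CPM over the 6 libraries at 96 h, against 199.7 to 224 CPM in Static 0 h. In the 24 genes of the interferon response 5 rose and 0 fell in both (20.8%), including OAS1, a sensor of viral RNA (1.20 in OSS 96 h and 1.12 in Static 96 h).

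Of 61 tested primary cilium genes 2 rose and 5 fell in both cultures (11.5%), and 9 were called in opposite directions (14.8%). The list's median was -0.25 in OSS 96 h and 0.11 in Static 96 h. By test 40 members were lower (65.6%, against 24.0% of all tested genes) and 0 higher (22.7% of all) in OSS 96 h than in Static 96 h. SMO, the signal transducer of the hedgehog pathway, was at 54.1, 55.7 and 44.8 CPM in OSS 96 h and 47.9, 46.3 and 45.6 CPM in Static 96 h, against 84.1, 74.0 and 85.7 CPM in Static 0 h (-0.73 ± 0.07, edgeR adjusted p = 4.24e-06), and CC2D2A, of the transition zone, fell as well (-0.55 ± 0.10). Of 43 genes of actin and focal adhesion 3 rose and 5 fell in both (18.6%) and 7 were called in opposite directions (16.3%), with MYLK (myosin light chain kinase) rising by 1.32 ± 0.19. In cholesterol synthesis 10 of 25 rose and 0 fell in the mean of both cultures but 3 rose in both (12%, against 8.54% of all tested genes), including the sterol carrier STARD4 (0.92 ± 0.17).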
